A study of Mus musculus with 16 samples.

Results

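The comparison set 6 dorsal root ganglion (DRG) libraries of mice injected intrathecally with the IL4-10 fusion protein against 5 libraries of mice injected with PBS (vehicle), 11 of the 16 samples of the series. Members were taken by their sample labels, and genes were tested when their mean log2 value over the 16 libraries was at least 6.99, which left 13385 of 36722 genes. That mean includes the fusion protein libraries, so a gene low in all others can be tested through those 6 alone. The place of such a gene in a list count rests on the libraries where it is high. All animals were C57BL/6 mice given 20 µl of 2% carrageenan into the paw, so vehicle animals were inflamed too and no uninflamed group enters the comparison. On day 6 after carrageenan the mice received PBS or 1 µg of the fusion protein, and L3 to L5 ganglia were taken 6 hours later. The other 5 libraries came from mice given 0.5 µg each of IL4 and IL10 as separate proteins (the combination). They are set beside the fusion protein here. Label numbers were 1 to 4 and 18 in vehicle, 5 to 8, 12 and 19 with the fusion protein and 13 to 17 with the combination. All combination libraries thus have late numbers, and label order and treatment cannot be fully told apart in comparisons with them. The same holds for the fusion protein against vehicle, where only number 18 in vehicle lies above any fusion protein number. Among the libraries labelled 1 to 8, order and treatment cannot be told apart at all. The labels give neither the age of the animals nor whether each sample is a different mouse, so p-values measure the spread between these samples, which may be technical.

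Interleukin 4 acts through Il4ra paired with Il2rg or Il13ra1 and the transcription factor Stat6, and interleukin 10 through Il10ra and Il10rb and the transcription factor Stat3. Both restrain inflammatory cytokine production by macrophages. A DRG holds the cell bodies of sensory neurons, satellite glia that wrap them, Schwann cells, vessels and resident macrophages, and carrageenan inflammation of the paw sensitises the nociceptors among these neurons. Type I interferons signal through Stat2 and Irf9, which act in a complex that binds interferon-stimulated response elements (ISRE) in the promoters of antiviral genes.

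Values are scaled values decoded from the deposited log2 table. They are whole numbers but not read counts, and the read depth of a library is unknown. Differences are log2 differences (fusion protein minus vehicle) on the deposited scale with the SE of limma, and a gene is called when its Benjamini-Hochberg adjusted limma p is under 0.05. That scale compresses low values, so the difference of a weakly expressed gene understates its ratio. Of the tested genes, 1610 rose (12.0%) and 1840 fell (13.7%), and the median difference of all tested genes was -0.02. In bulk tissue, fewer cells of a type and less RNA per cell cannot be told apart.

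Markers of the tissue were present in all libraries. Scn10a, the sodium channel of nociceptors, ran from 22620 to 27242 in vehicle and from 17540 to 24803 with the fusion protein, and Apoe of satellite glia from 18469 to 41095 and from 23239 to 54419. Skeletal muscle markers stood apart in vehicle replicate 4, where Myh4 was 1627 against 9 to 187 in the other vehicle libraries. Fusion protein replicate 1 stood apart in myeloid and acute-phase genes. Its Fc receptor list median was 2.02 above the vehicle mean, against 0.76 to 1.09 in the other 5 libraries, and its monocyte median was 2.06 against 0.17 to 0.90. Many of the counts are therefore also given without this library. Gene length also separated the groups. The slope of a library on log2 exonic length was -0.0492 ± 0.0243 (SD, n = 6) with the fusion protein and 0.0716 ± 0.03 (SD, n = 5) in vehicle (two-sided exact permutation p = 0.00216, adjusted over 2 slopes 0.00433). For GC content the exact permutation p was 0.154.

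**Figure D1:**
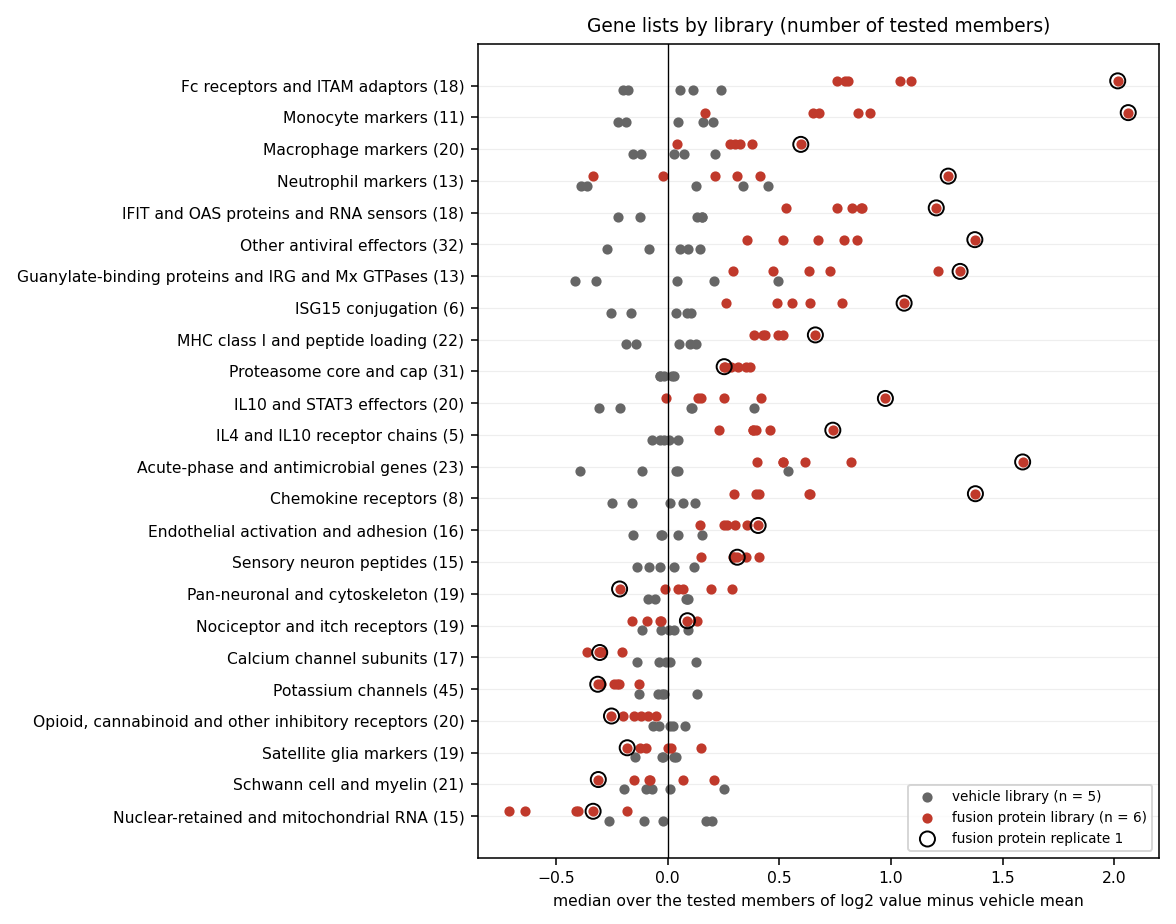
Each point is 1 library (grey, 5 vehicle; red, 6 fusion protein; ringed, fusion protein replicate 1), placed by the median over a list's tested members of the log2 value minus the vehicle mean. In the IFIT and OAS, other antiviral, Fc receptor and class I lists all 6 fusion protein libraries lie right of every vehicle library, in the calcium and potassium channel lists all 6 lie left, and replicate 1 is farthest right in the Fc receptor (2.02) and monocyte (2.06) lists.

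Receptor chains of the injected cytokines were higher in 4 of 5 cases, with 0 lower and a median difference of 0.51. Il10ra, the ligand-binding chain for IL10 (chromosome 9, 45253837 to 45269149, GRCm38), had scaled values of 90, 90, 133, 69 and 72 in vehicle and 120, 167 and 212 (lowest, median and highest) with the fusion protein. The groups overlapped only through vehicle replicate 3, and Il10ra rose by 0.50 ± 0.10 (adjusted p = 0.00154). Il4ra, the chain that binds IL4 (chromosome 7, 125552120 to 125579474), was 1327, 1037, 819, 706 and 1024 in vehicle and 1289, 1335 and 2627 with the fusion protein, a rise of 0.59 ± 0.16 (adjusted p = 0.0124). Vehicle replicate 1 lay within the treated range, and fusion protein replicate 1 gave the highest value. With only the libraries labelled 1 to 8 the Il4ra difference was 0.71 and its call ended (adjusted p = 0.0807). Il13ra1, which pairs with Il4ra on cells without the common gamma chain, rose by 0.58 ± 0.16, and Il2rg, that gamma chain, by 0.51 ± 0.11. In both genes every fusion protein library lay above every vehicle library, as in 7.76% of all tested genes (6.57% lay wholly below). Il10rb, the accessory chain of the IL10 receptor, ran from 613 to 699 in vehicle and from 656 to 867 with the fusion protein and did not pass (0.16 ± 0.06, adjusted p = 0.0683). With the combination, 0 of the 5 chains were called against vehicle, where 24.2% of all tested genes were higher and 12.3% lower. Tested against the combination, 4 of the 5 were higher with the fusion protein, as were 7.35% of all tested genes, while 22.2% of all tested genes were lower.

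Downstream of these receptors, 1 of 19 tested JAK, STAT and SOCS genes rose and 1 fell. Tyk2, a kinase on both the IL10 and the type I interferon receptors, fell by 0.24 ± 0.07, a call that ended without vehicle replicate 3 (-0.20, adjusted p = 0.0507) and with the length and GC trends removed (-0.10, 0.247). Stat3 (-0.00 ± 0.09, adjusted p = 0.976), Stat6 (0.12 ± 0.06, 0.174), Jak1 (0.07 ± 0.07, 0.534) and Stat2 (0.18 ± 0.10, 0.197) did not pass. Socs3, the feedback inhibitor that Stat3 induces, was 1102, 514, 174, 142 and 593 in vehicle and ran from 285 to 1811 with the fusion protein. With that spread its difference of 0.44 ± 0.46 did not pass (adjusted p = 0.51). The other members without a call lay between -0.23 and 0.11.

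Of 20 tested IL10 and Stat3 effectors, 9 rose and 0 fell, with a median of 0.26. Without fusion protein replicate 1 the count was 7 and the median 0.11. Saa3, an acute-phase apolipoprotein, was 59, 26, 4, 11 and 37 in vehicle and 318, 450 and 2715 with the fusion protein, so the groups did not overlap (2.62 ± 0.39, adjusted p = 0.000462). The mean log2 value of Saa3 was 6.85 in vehicle and 6.83 with the combination, both below the filter. It was therefore tested only through the fusion protein libraries. Il1rn, the natural antagonist of the interleukin 1 receptor, was 131, 82, 41, 21 and 117 against 258, 381.5 and 1459 (1.77 ± 0.32). Timp1, an inhibitor of matrix proteases, rose by 1.63 ± 0.43 (1.91, adjusted p = 0.0529, with only the libraries labelled 1 to 8), and Fcgr1, the high-affinity IgG receptor, by 1.18 ± 0.18. Of 14 tested genes of alternative macrophage activation, the state that IL4 and Stat6 induce, 2 rose and 1 fell (median -0.04). The list holds 22 genes, and the others were below the filter. Arg1, the arginase of that state, was 37, 14, 16, 4 and 22 in vehicle and 211, 228.5 and 629 with the fusion protein, without overlap (1.93 ± 0.25, adjusted p = 0.000123). Tgm2, a transglutaminase, rose by 1.20 ± 0.35, but was 1.08 when vehicle replicate 3 was left out (adjusted p = 0.0614) and 0.99 when vehicle replicate 4 was left out (0.0629), which ended its call. Mgl2, a lectin of the same macrophages, went the other way. It was 186 to 344 in vehicle and 88 to 184 with the fusion protein, and fell by 0.53 ± 0.13. The lectin receptor Mrc1 (0.13 ± 0.15) and the chitinase-like Chil3 (0.83 ± 0.30, adjusted p = 0.0581) did not pass.

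Interferon-induced genes were mostly higher. Across the lists of interferon transcription factors, ISG15 conjugation, IFIT and OAS proteins, guanylate-binding proteins and other antiviral effectors, 58 of 78 tested genes rose and 0 fell, against 12.0% of all tested genes. Sequence near their start sites is shown first, because these genes moved together. The ISRE core, here GAAA and GAAA with any 2 bases between them, was searched on both strands, with overlapping matches counted, in the 250 bases before the RefSeq start (GRCm38.p6). Of the 58 genes that rose, 44 had a promoter in that table. The core was present in 18 of these 44 (40.9%), in 7 of 17 interferon-list genes with a promoter and no call (41.2%), and in 3.18% of the 10221 tested genes with a promoter. The core was therefore as frequent in list members without a call as in those that rose. The gamma-activated site, TTC and GAA with any 3 bases between them, was present in 7 of the 44 (15.9%), in 6 of the 17 without a call (35.3%) and in 7.18% of the tested genes with a promoter. The 5 genes with the core and the largest increases are printed 5′ to 3′ on the strand of the gene, with matches in capitals. On the opposite strand each GAAA reads TTTC. They lie at chr4:156200819-156201068 (minus strand, Isg15), chr3:142620413-142620662 (plus, Gbp2), chr19:34607707-34607956 (plus, Ifit3b), chr19:34583279-34583528 (plus, Ifit3) and chr3:142559794-142560043 (plus, Gbp3).
Isg15: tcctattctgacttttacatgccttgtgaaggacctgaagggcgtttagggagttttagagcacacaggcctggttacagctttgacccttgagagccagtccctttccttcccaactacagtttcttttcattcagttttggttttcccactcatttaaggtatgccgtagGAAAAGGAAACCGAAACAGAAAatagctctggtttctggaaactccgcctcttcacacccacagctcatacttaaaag
Gbp2: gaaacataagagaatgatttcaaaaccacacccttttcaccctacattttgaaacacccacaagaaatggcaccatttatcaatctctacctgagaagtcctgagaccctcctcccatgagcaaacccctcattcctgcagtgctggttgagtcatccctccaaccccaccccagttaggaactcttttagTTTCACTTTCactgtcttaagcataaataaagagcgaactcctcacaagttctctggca
Ifit3b: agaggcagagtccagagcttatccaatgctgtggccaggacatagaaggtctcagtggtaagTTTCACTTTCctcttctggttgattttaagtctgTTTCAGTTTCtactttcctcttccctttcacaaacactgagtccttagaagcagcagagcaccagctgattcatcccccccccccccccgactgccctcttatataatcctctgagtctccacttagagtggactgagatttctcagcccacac
Ifit3: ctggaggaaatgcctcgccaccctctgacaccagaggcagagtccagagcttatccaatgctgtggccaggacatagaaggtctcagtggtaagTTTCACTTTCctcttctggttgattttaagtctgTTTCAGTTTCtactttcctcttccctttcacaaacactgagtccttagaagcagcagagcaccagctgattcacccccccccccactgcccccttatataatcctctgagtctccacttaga
Gbp3: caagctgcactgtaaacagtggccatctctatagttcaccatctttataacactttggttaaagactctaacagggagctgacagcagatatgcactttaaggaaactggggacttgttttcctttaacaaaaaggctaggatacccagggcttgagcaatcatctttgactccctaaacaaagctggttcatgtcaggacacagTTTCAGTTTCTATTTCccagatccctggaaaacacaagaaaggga
Isg15 held 3 overlapping matches, and Ifit3b, Ifit3 and Gbp3 held 2 each. Ifit3 and Ifit3b are close paralogs, and counting may divide their reads between them, so their separate values are uncertain. A match is a description of letters and not of binding.

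Isg15, the ubiquitin-like protein whose promoter is shown above, was 92, 55, 62, 57 and 48 in vehicle and 512, 641.5 and 767 with the fusion protein. The groups did not overlap, and the rise was 2.19 ± 0.10 (adjusted p = 6.46e-11). Of 6 tested genes of the ISG15 conjugation pathway, 4 rose and 0 fell (median 0.63). Usp18, the protease that removes ISG15 and restrains the interferon receptor, rose by 1.21 ± 0.14, Herc6, a conjugating ligase, by 0.82 ± 0.18 and Ube2l6, the conjugating enzyme, by 0.44 ± 0.10. Trim25, a ligase of the same pathway, did not pass (0.30 ± 0.12, adjusted p = 0.061).

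Transcription factors of the interferon response rose in 3 of 9 cases, with 0 lower and a median of 0.21. Irf7, which amplifies type I interferon responses (chromosome 7, 141262706 to 141266481), was 123, 121, 144, 133 and 54 in vehicle and 447, 570 and 764 with the fusion protein, without overlap (1.65 ± 0.12, adjusted p = 2.4e-07). Irf9, the DNA-binding partner of Stat2, rose by 0.47 ± 0.11, from 515 to 687 in vehicle to 710 to 1239. Irf2, which competes for the same sites, did not pass (-0.22 ± 0.11, adjusted p = 0.168).

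Among IFIT and OAS proteins and RNA sensors, 16 of 18 rose and 0 fell, with a median of 0.85. Ifit3 ran from 304 to 1028 in vehicle and from 1211 to 2761 with the fusion protein (1.62 ± 0.26), and Ifit1, which binds foreign RNA caps, from 322 to 1539 and from 1498 to 3293 (1.45 ± 0.28). Zbp1, a sensor of Z-form nucleic acid, ran from 61 to 149 in vehicle and was 227, 409.5 and 1005 with the fusion protein (1.39 ± 0.25). Mavs, the mitochondrial adaptor of RNA sensors, did not pass (-0.06 ± 0.09, adjusted p = 0.62). Of 13 guanylate-binding proteins and related GTPases, 7 rose and 0 fell, with a median of 0.72. Gbp2, which attacks pathogen vacuoles, was 1854, 1921, 2020, 663 and 1067 in vehicle and 2867, 5144.5 and 15161 with the fusion protein (1.98 ± 0.42, adjusted p = 0.0038), and Gbp3 rose by 1.49 ± 0.22. Of 32 other antiviral effectors, 28 rose and 0 fell, with a median of 0.77. Slfn4, a myeloid schlafen protein, was 124, 124, 134, 67 and 50 against 811, 1321 and 5286, the largest increase among the called genes with an established symbol (3.02 ± 0.35). Ifitm3, which blocks viral entry, rose by 1.37 ± 0.22, and Ifi27l2a by 1.38 ± 0.22. Without fusion protein replicate 1 the 3 counts were 15, 7 and 26, with 0 lower.

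The interferons themselves were listed at or near a scaled value of 1, below which only some values of fusion protein replicates 5 and 6 lie. The mitochondrial genes mt-Co2, mt-Co3 and mt-Atp6, which every cell uses, were also listed at 1 in all 11 libraries, so a value of 1 is not read as absence. All 8 listed interferon ligand genes were below the filter. Ifnb1, Ifna2, Ifna4, Ifnk, Ifne and Ifnl2 were 1 in all 11 libraries. Ifng was 1 in every vehicle library and 3 to 6 with the fusion protein. Of 5 tested interferon receptor chains, Ifngr1, the binding chain for interferon gamma, was 682, 712, 698, 728 and 718 in vehicle and 846, 938 and 1119 with the fusion protein, and rose by 0.37 ± 0.06 (adjusted p = 0.00044) without overlap. Ifngr2 (0.00 ± 0.06, adjusted p = 0.985), Ifnar1 (0.09 ± 0.08, 0.385), Ifnar2 (0.08 ± 0.10, 0.58) and Ifnlr1 (-0.10 ± 0.07, 0.321) did not pass.

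Antigen presentation by class I molecules rose with the interferon genes: 19 of 22 tested members were higher and 0 lower (median 0.54; 16 and 0.43 without fusion protein replicate 1). Psmb8, a catalytic subunit of the immunoproteasome, was 341, 287, 368, 170 and 185 in vehicle and 472, 563.5 and 936 with the fusion protein (0.98 ± 0.15). Psme1, a proteasome activator, was 307 to 423 against 640 to 766 (0.75 ± 0.07, adjusted p = 3.63e-06). H2-Q4 and H2-T23, class I heavy chains whose reads are hard to assign among close copies, rose by 0.92 ± 0.19 and 0.67 ± 0.16. B2m, the invariant light chain, rose by 0.51 ± 0.16, but its call ended without fusion protein replicate 1 (0.44, adjusted p = 0.0514), fusion protein replicate 2 (0.45, 0.0561), vehicle replicate 4 (0.51, 0.054) or vehicle replicate 5 (0.42, 0.0735), and with the length and GC trends removed (0.27, 0.256). Nlrc5, the activator of class I genes, did not pass (0.58 ± 0.22, adjusted p = 0.0667). Of 7 class II genes 1 rose: H2-DMb1, a peptide exchange factor, at 0.28 ± 0.09, a call that ended without vehicle replicate 4 (0.24, adjusted p = 0.0643) and with trends removed (0.13, 0.219). Cd74, the class II invariant chain, did not pass (0.30 ± 0.17).

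The constitutive proteasome was higher in 29 of 31 genes, by a smaller median of 0.31. Psmc1, an ATPase of the cap, was 3468, 3524, 3566, 3889 and 3719 in vehicle and 4637, 4853.5 and 5171 with the fusion protein, without overlap (0.42 ± 0.06). Psmc3 rose by 0.56 ± 0.11 and Psma4, a subunit of the core, by 0.42 ± 0.07. Psmd11, a subunit of the cap, did not pass (-0.22 ± 0.10, adjusted p = 0.0969). The members are short, with a median exonic length of 2808 bases, and with length and GC trends removed 19 were higher, 1 was lower and the median was 0.22. Against the combination 1 of the 31 members was higher and 8 were lower, beside 7.35% and 22.2% of all tested genes.

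**Figure D2:**
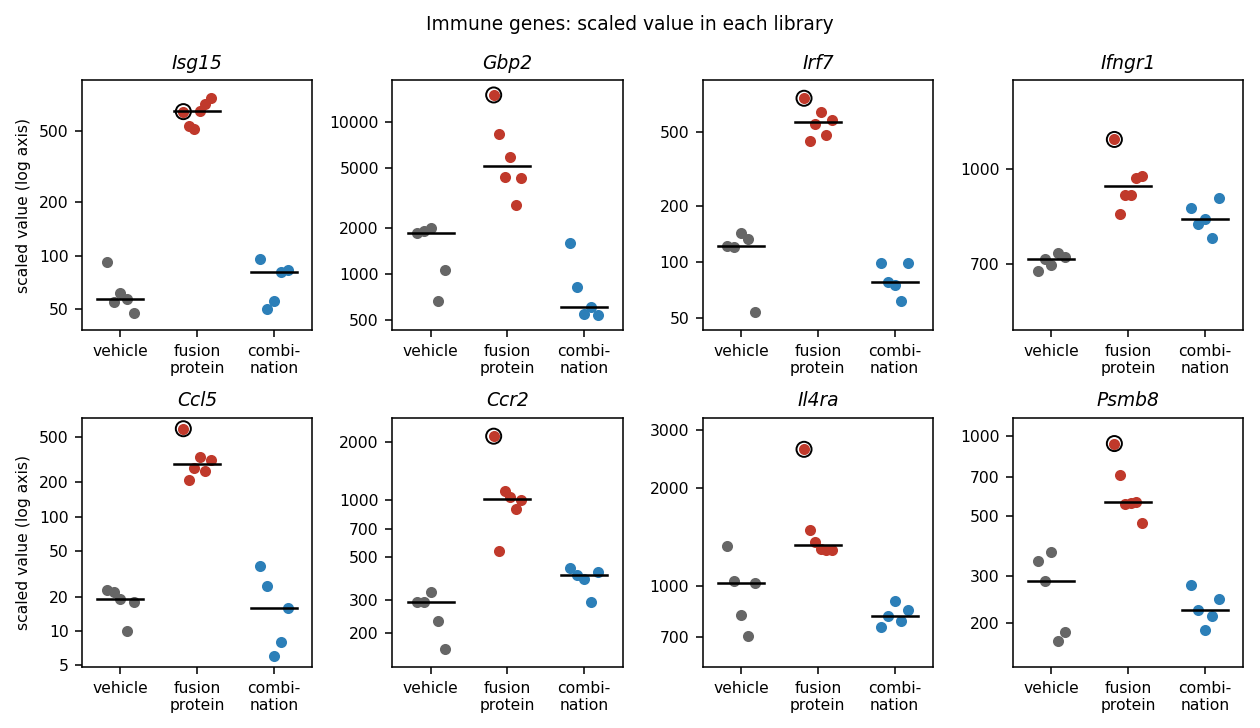
Scaled values on a log axis of 8 immune genes in each vehicle (grey, n = 5), fusion protein (red, n = 6; ring, replicate 1) and combination (blue, n = 5) library, with the group median as a bar. Isg15, Irf7, Ccl5, Ccr2 and Psmb8 are above every vehicle library in all 6 fusion protein libraries, and Il4ra overlaps through vehicle replicate 1 at 1327.

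Chemokines were higher in 6 of 17 tested cases and lower in 0 (median 0.26), and chemokine receptors higher in 4 and lower in 1 of 8 (median 0.61). These counts were the same and the medians 0.20 and 0.44 without fusion protein replicate 1. Ccl5, which draws T cells and monocytes (chromosome 11, 83525778 to 83530518), was 23, 22, 19, 10 and 18 in vehicle and 209, 289.5 and 590 with the fusion protein, without overlap (2.00 ± 0.16, adjusted p = 6.41e-07). Cxcl9 and Cxcl10, interferon-induced ligands of Cxcr3, rose by 1.81 ± 0.24 and 1.29 ± 0.21, and Ccl9, a ligand of Ccr1, by 1.49 ± 0.25. Ccl5 and Cxcl9 were tested only through the fusion protein libraries. Their mean log2 values were 6.75 and 6.88 in vehicle and 6.72 and 6.989 with the combination, below the filter. Of 32 listed chemokines, 17 passed it. Eotaxin Ccl11 (0.62 ± 0.40, adjusted p = 0.273) and the homeostatic chemokine Cxcl12 (-0.17 ± 0.09, 0.198) did not pass. Ccr2, the receptor that brings inflammatory monocytes into tissue, was 293, 291, 329, 232 and 166 in vehicle and 539, 1015.5 and 2152 with the fusion protein (1.64 ± 0.22). Ccr1, a receptor for several of these ligands, rose by 1.62 ± 0.32, Cxcr4 did not pass (-0.04 ± 0.11), and the scavenger receptor Ackr1 of venules, named after its values were seen, fell by 0.34 ± 0.08, a call that ended with only the libraries labelled 1 to 8 (-0.26, adjusted p = 0.0903).

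Of 13 tested inflammatory cytokines and IL1 family genes, 3 rose and 0 fell, with a median of 0.30. Il1b, the pyrogenic cytokine that Il1rn opposes, was 55, 52, 36, 16 and 39 in vehicle and 159, 285 and 1471 with the fusion protein (1.79 ± 0.36, adjusted p = 0.00255). The agonist and its antagonist therefore both rose, while the signalling receptor Il1r1 did not pass (0.06 ± 0.20). Of 30 TNF and NF-kB regulators, 10 rose and 1 fell (median 0.25). Tnfrsf1b, the leukocyte TNF receptor, rose by 0.85 ± 0.17, Ikbke, a kinase that activates interferon regulatory factors, by 0.82 ± 0.14, and Pycard, the inflammasome adaptor, by 0.60 ± 0.11, whereas Tnfrsf1a, the ubiquitous TNF receptor, did not pass (0.16 ± 0.15). Of 18 Toll-like receptor genes and adaptors, 6 rose and 1 fell (median 0.22), among them Tlr13, a sensor of bacterial ribosomal RNA (1.13 ± 0.24), Cd14, the lipopolysaccharide co-receptor (1.02 ± 0.22), and Tlr2 (0.91 ± 0.13). The medians of these 3 lists without fusion protein replicate 1 were 0.19, 0.15 and 0.13, with 4 cytokine, 10 TNF and 6 Toll-like receptor genes higher and 0, 2 and 1 lower. With only the libraries labelled 1 to 8, Tlr13 lost its call (1.21, adjusted p = 0.0669). Of 6 gp130 family receptors 1 rose and 2 fell: Lifr, for leukaemia inhibitory factor, fell by 0.49 ± 0.11 and Cntfr, for ciliary neurotrophic factor, by 0.57 ± 0.13, while the shared chain Il6st did not pass (0.12 ± 0.12).

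Acute-phase and antimicrobial genes were higher in 14 of 23 cases with 0 lower (median 0.59), and in 10 without fusion protein replicate 1 (0.51). Hp, the haptoglobin that binds free haemoglobin, was 179, 52, 71, 39 and 148 in vehicle and 301, 435.5 and 943 with the fusion protein (1.69 ± 0.31, adjusted p = 0.00157). The metallothioneins Mt1 and Mt2, which bind zinc, did not pass, at 1.02 ± 0.43 (adjusted p = 0.101) and 1.41 ± 0.51 (0.0581). Mt2 ran from 335 to 3522 in vehicle, where replicates 1 and 5 were the highest. Of 18 complement genes 8 rose and 0 fell (median 0.27; 8, 0 and 0.30 without fusion protein replicate 1): C3, the central component, was 237 to 372 in vehicle and 541 to 1354 with the fusion protein (1.08 ± 0.18), C5ar1, the receptor for C5a, rose by 0.98 ± 0.24, and C3ar1 by 0.73 ± 0.17. The call of C5ar1 ended with only the libraries labelled 1 to 8 (1.09, adjusted p = 0.0856).

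Myeloid genes rose to different extents. Fc receptors and their ITAM adaptors had the largest median of the lists, 1.16, with 16 of 18 members higher and 0 lower, also 16 without fusion protein replicate 1 (median 0.98). Fcgr4, an activating IgG receptor of monocytes, was 31, 17, 21, 10 and 12 in vehicle and 119, 163.5 and 276 with the fusion protein, without overlap (1.42 ± 0.14, adjusted p = 3.94e-06). Fcer1g, the shared signalling chain, rose by 1.34 ± 0.21, Ms4a4c by 1.35 ± 0.15 and the inhibitory receptor Lilr4b by 1.37 ± 0.25. Clec7a, the receptor for fungal glucan, did not pass (0.42 ± 0.16, adjusted p = 0.0547). Monocyte markers were higher in 7 and lower in 2 of 11 cases (median 0.89; 7, 2 and 0.63 without replicate 1), with Plac8 at 65, 27, 37, 19 and 21 in vehicle and 154, 308.5 and 412 with the fusion protein (1.67 ± 0.17) and the coagulation factor F10 rising by 1.15 ± 0.20. Macrophage markers were higher in 10 and lower in 1 of 20 (median 0.27; 9, 1 and 0.25 without replicate 1). Ctss, a lysosomal protease, was 250 to 517 against 942 to 2405 (1.53 ± 0.17), Itgam, the CD11b integrin, rose by 1.20 ± 0.29, Ptprc, the CD45 phosphatase of all leukocytes, by 1.01 ± 0.21, and Lyz2, a lysozyme, by 0.86 ± 0.23. With only the libraries labelled 1 to 8, Itgam (1.27, adjusted p = 0.094), Ptprc (0.94, 0.0687) and Lyz2 (0.59, 0.211) did not pass. Mertk, a receptor with which resident macrophages clear dying cells, went down. It was 423 to 622 in vehicle and 293 to 375 with the fusion protein and fell by 0.52 ± 0.09 (adjusted p = 0.000528); it was named after its values were seen.

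Neutrophil markers were higher in 3 and lower in 1 of 13 (median 0.22); Csf3r, their growth factor receptor, rose by 1.20 ± 0.33 (1.28, adjusted p = 0.117, with only the libraries labelled 1 to 8), while S100a9 (0.49 ± 0.30, adjusted p = 0.252) and the granule protein Ngp (-0.14 ± 0.28, 0.738) did not pass. The neutrophil median rested on single libraries: it was 0.14 without vehicle replicate 4 or 5, and 0.38, 0.36 and 0.35 without vehicle replicate 1, fusion protein replicate 2 or vehicle replicate 3. Of 4 tested T and NK cell markers 2 rose, Gzma, a granzyme (1.08 ± 0.11, from 5 to 14 in vehicle to 48 to 145), and Lck, a T cell kinase (0.42 ± 0.09), and Il7r did not pass (0.22 ± 0.12). The other 14 listed T and NK genes were below the filter. Without a filter, 36 of 172 fitted list genes below it were higher and 1 was lower. In that fit 6.4% of all genes were higher and 8.14% lower, and 2.13% and 4.24% of the genes below the filter. Among the 36 that were higher, and named after their values were seen, the granzyme Gzmb was 3 to 7 in vehicle and 47 to 105 with the fusion protein, the itaconate enzyme Acod1 1 to 8 and 51 to 335, the T cell receptor constant gene Trac 6 to 7 and 15 to 31, and the chemokine Ccl4 2 to 5 and 22 to 62. The 1 that was lower, also named after its values were seen, was Egr3 of the immediate-early list. It was 23 to 47 in vehicle and 10 to 24 with the fusion protein (-0.36, adjusted p = 0.00422). Of 8 B and plasma cell markers 0 rose and 1 fell (median -0.19), Ighm, by 0.25 ± 0.08, a call that ended without fusion protein replicate 2 (-0.20, adjusted p = 0.0592), fusion protein replicate 5 (-0.23, 0.0525), vehicle replicate 2 (-0.24, 0.0641) or vehicle replicate 3 (-0.19, 0.0976), and with only the libraries labelled 1 to 8 (-0.24, 0.143). Mast cell markers were higher in 1 of 6 (median 0.26), with Kit (-0.18 ± 0.08) and Cpa3 (0.12 ± 0.07) not passing. Red cell markers were called in 0 of 7 (median 0.05); Hba-a1 was 286 to 2148 in vehicle and 324 to 1465 with the fusion protein, so blood in the tissue varied within both groups and its part in the leukocyte differences was not tested.

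In vessels, markers of endothelium itself were higher in 2 of 15 cases with 0 lower (median 0.03), and activation and adhesion genes in 7 with 1 lower of 16 (median 0.24). Leaving out fusion protein replicate 1 gave 1 and 0 (0.04), and 6 and 2 (0.24). Vcam1, which captures leukocytes, was 309, 278, 274, 233 and 189 in vehicle and 366, 458 and 668 with the fusion protein (0.70 ± 0.11, adjusted p = 0.000267). Selp, the selectin on which they roll, rose by 0.83 ± 0.21, and Itgb2, the integrin chain on the leukocyte side, by 0.99 ± 0.23. Both calls ended with only the libraries labelled 1 to 8 (0.96, adjusted p = 0.0613, and 0.98, 0.106). Pecam1 rose by 0.24 ± 0.08, a call that ended without fusion protein replicate 1 (0.21, adjusted p = 0.0515), vehicle replicate 3 (0.22, 0.065) or vehicle replicate 5 (0.23, 0.0522), and Ly6c1 by 0.42 ± 0.10. Mural cell markers had 0 higher and 1 lower of 9 (median 0.05), fibroblast and perineurial markers 1 and 3 of 11 (-0.02), skeletal muscle 0 and 0 of 6 (-0.52) and central glia 0 and 2 of 5 (-0.00). The skeletal muscle median was -0.01 without vehicle replicate 4 and -0.82 without vehicle replicate 3.

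**Figure D3:**
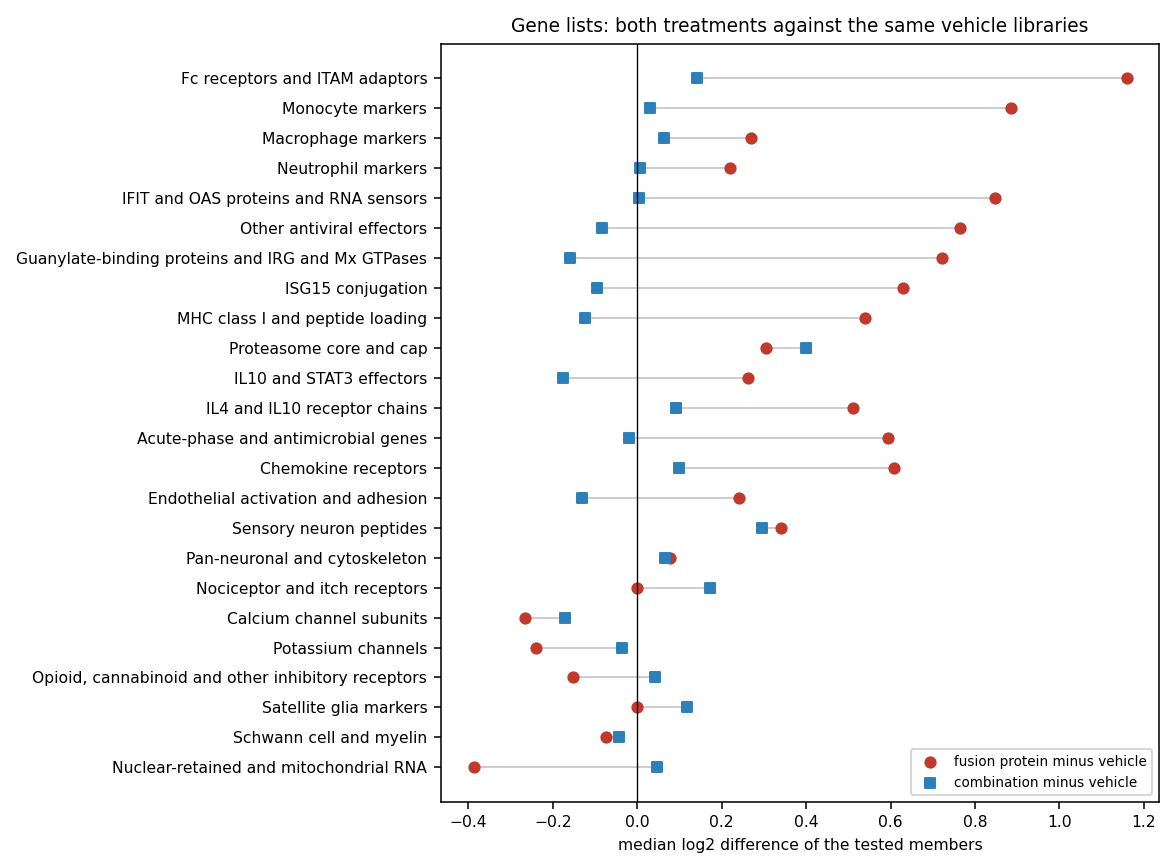
Median log2 difference of the tested members of 24 lists for the fusion protein (red circles) and the combination (blue squares), each minus the same 5 vehicle libraries. Fc receptor genes stand at 1.16 and 0.14, IFIT and OAS genes at 0.85 and 0.00, and proteasome genes at 0.31 and 0.40.

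The comparison of the combination with vehicle uses the same vehicle libraries, so its values are only set beside those of the fusion protein. Against vehicle, 24.2% of all tested genes were higher with the combination and 12.3% lower. Among the 18 IFIT and OAS genes 1 was higher and 0 lower (median 0.00), among the 32 other antiviral effectors 2 and 0 (-0.08), and among the 22 class I genes 4 and 2 (-0.12). Tested directly, 7.35% of all genes were higher with the fusion protein than with the combination and 22.2% lower. In the same lists 14 of 18, 29 of 32 and 17 of 22 were higher with the fusion protein and 0 lower. For Isg15 the combination libraries had a median of 81 and a range of 50 to 96, and the fusion protein exceeded the combination by 2.09 (adjusted p = 1.54e-10). Saa3, with combination values of 12 to 33, was higher with the fusion protein by 2.64, and Arg1, with 14 to 153, by 1.49. Of 20 IL10 and Stat3 effectors, 16 were higher and 1 was lower with the fusion protein than with the combination, among them Socs3, at 115 to 159 in the combination libraries (1.52, adjusted p = 0.0256). Mgl2 was 259 to 450 with the combination and was lower with the fusion protein by 0.88 (adjusted p = 0.00054). The doses were 1 µg of fusion protein and 0.5 µg of each cytokine by mass.

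Ion channel genes fell more often than they rose, while over all tested genes 13.7% fell and 12.0% rose. Of 45 potassium channel genes 23 fell and 0 rose (median -0.24), of 17 calcium channel subunits 9 fell and 0 rose (-0.27), of 13 sodium channel subunits 3 fell and 0 rose (-0.17), and of 19 HCN and chloride channels 7 fell and 1 rose (-0.12). Without fusion protein replicate 1 the lower counts were 21, 9, 1 and 5. Cacna1a, which forms the P/Q-type channel of nerve terminals (chromosome 8, 84388440 to 84640246), was 1768, 1874, 1831, 2022 and 1730 in vehicle and 972, 1080 and 1174 with the fusion protein. The groups lay far apart, and it fell by 0.72 ± 0.06 (adjusted p = 1.15e-06). Cacna1h, a T-type channel of nociceptors and mechanoreceptors, fell by 0.56 ± 0.07, Cacna1c, an L-type pore, by 0.53 ± 0.09, and Cacna1b, the N-type pore, by 0.45 ± 0.07, whereas Cacna2d1, the gabapentin-binding subunit, did not pass (-0.06 ± 0.13). Kcnc1, a potassium channel of fast-spiking neurons, was 1260, 1099, 936, 1402 and 1022 in vehicle and 672, 753.5 and 880 with the fusion protein, without overlap (-0.50 ± 0.09). Kcng3, a modulatory subunit, fell by 0.53 ± 0.10. Scn8a, the sodium channel of nodes of Ranvier, fell by 0.53 ± 0.11, while the nociceptor channels Scn10a (-0.09 ± 0.10, adjusted p = 0.523) and Scn11a (-0.17 ± 0.12, 0.315) did not pass. Hcn2, a pacemaker channel that drives nociceptor firing, was 786 to 1111 in vehicle and 592 to 718 with the fusion protein (-0.49 ± 0.09).

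These lists are made of long genes, with median exonic lengths of 5287 bases for potassium, 9763 for calcium, 7338 for sodium and 6360 for HCN and chloride channels against 4616 for all tested genes. With the length and GC trends of the libraries removed, 19 potassium channels were lower and 2 higher (median -0.18), 6 calcium channels lower (-0.13), 1 sodium channel lower (-0.03), and 4 of the HCN and chloride channels lower and 4 higher (-0.10). Cacna1a, Cacna1h, Kcng3, Scn8a and Hcn2 kept their calls in each alternative that tested them. Against the combination, 20 of 45 potassium channels were lower with the fusion protein and 1 was higher, beside 22.2% and 7.35% of all tested genes. Cacna1a (-0.15, adjusted p = 0.086), Kcnc1 (-0.12, 0.33) and Hcn2 (0.01, 0.93) did not pass that comparison.

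Of 27 TRP, Piezo, ASIC and P2X channels, 1 rose and 6 fell (median -0.06). Piezo2, the touch and proprioception channel, was 9162, 11335, 11202, 14057 and 11011 in vehicle and 7016, 8041 and 10460 with the fusion protein, an overlap through vehicle replicate 1 and fusion protein replicate 2 (-0.45 ± 0.12, adjusted p = 0.00841). Its call ended with only the libraries labelled 1 to 8 (-0.41, 0.0704). Trpm3, a heat-activated channel, fell by 0.35 ± 0.08, but differed by -0.05 (adjusted p = 0.475) with length and GC trends removed. Trpa1, the irritant receptor, was the member that rose (0.26 ± 0.09, adjusted p = 0.0345). Its call ended without any one of fusion protein replicates 1, 2 and 6 and vehicle replicates 1, 2, 3 and 5 (0.22 to 0.26, adjusted p 0.0583 to 0.0747). Trpv1, the capsaicin receptor, and P2rx3, an ATP receptor of nociceptors, did not pass (0.19 ± 0.09 and 0.10 ± 0.06). Of 19 nociceptor and itch receptors 1 rose and 0 fell (median -0.00), and of 19 pan-neuronal genes 2 rose and 4 fell (0.08). Prdm12, a transcription factor of nociceptors, fell by 0.46 ± 0.10 and Rbfox3, the NeuN antigen, by 0.38 ± 0.09, while the neurofilament Nefl did not pass (0.16 ± 0.14).

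Neuropeptide genes went up. Of 15 tested members 9 rose and 0 fell, with a median of 0.34. Scg2, the precursor of secretoneurin (chromosome 1, 79434669 to 79440120), was 7952, 7566, 8800, 7989 and 7248 in vehicle and 9724, 11089 and 12436 with the fusion protein, without overlap (0.46 ± 0.08, adjusted p = 0.000599). Calca, which encodes CGRP, was 14285, 12163, 13896, 11642 and 14233 against 15665, 17327.5 and 21174, also without overlap (0.43 ± 0.09, adjusted p = 0.0019). Penk, the precursor of the opioid enkephalins, was 124, 119, 159, 98 and 115 against 145, 211 and 288 (0.48 ± 0.11), and Gal, a peptide induced by nerve injury, rose by 0.43 ± 0.10 (0.32, adjusted p = 0.087, with only the libraries labelled 1 to 8), Adm, a vasodilator, by 0.39 ± 0.10 and Nts by 0.36 ± 0.08. Tac1, the precursor of substance P, named after its values were seen, rose by 0.29 ± 0.08. The peptide genes are short (median exonic length 1619 bases). With length and GC trends removed 6 were higher and 1 was lower (median 0.18), Scg2, Calca, Gal and Adm kept their calls, and Penk (0.27, adjusted p = 0.0681), and Nts (0.09, 0.404) lost theirs. The combination gave a median of 0.30 with 9 higher and 1 lower, beside 24.2% and 12.3% of all tested genes. Tested directly, 1 of the 15 was higher with the fusion protein than with the combination and 0 were lower, beside 7.35% and 22.2%.

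Receptors through which neurons are inhibited fell in 6 of 20 cases and rose in 0 (median -0.15). With length and GC trends removed the median was -0.09. Grm4, a presynaptic glutamate receptor, was 469, 340, 331, 340 and 370 in vehicle and 187, 241.5 and 286 with the fusion protein, without overlap (-0.46 ± 0.09, adjusted p = 0.00174). Htr1b, a serotonin autoreceptor, was 220 to 261 against 126 to 187 (-0.34 ± 0.08), and Galr1, a receptor for the peptide of Gal, fell by 0.36 ± 0.09. Oprm1, the mu opioid receptor, was 443, 630, 667, 612 and 589 against 383, 445.5 and 512 (-0.32 ± 0.10, adjusted p = 0.0204). Vehicle replicate 1 was the one vehicle library within the treated range, and the call ended without vehicle replicate 2 (-0.30, adjusted p = 0.0545) or vehicle replicate 3 (-0.28, 0.0628), and with only the libraries labelled 1 to 8 (-0.26, 0.135). Gabbr2, a GABA-B subunit, fell by 0.34 ± 0.10 and Grm7 by 0.29 ± 0.09, and both calls ended without vehicle replicate 4 (-0.28, adjusted p = 0.0532, and -0.24, 0.0676). That of Gabbr2 also ended with trends removed (-0.23, adjusted p = 0.0576), and that of Grm7 with only the libraries labelled 1 to 8 (-0.28, 0.0922). Oprd1 (-0.20 ± 0.09, adjusted p = 0.119), the cannabinoid receptor Cnr1 (-0.08 ± 0.10, 0.586), Oprk1 (0.00 ± 0.07) and Oprl1 (0.09 ± 0.06) did not pass, and the other 10 lay between -0.22 and 0.18.

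Of 26 receptors for pain mediators 3 rose and 3 fell (11.5% each, median 0.02), near the 12.0% and 13.7% of all tested genes. Ptger2, a prostaglandin E2 receptor, rose by 0.29 ± 0.08, from 18 to 28 in vehicle to 34 to 49, and Htr1d, a target of triptans, fell by 0.30 ± 0.08 (-0.25, adjusted p = 0.0994, with only the libraries labelled 1 to 8). Of 12 neurotrophin and GDNF receptors 3 fell and 0 rose (-0.11). Ntrk3, the neurotrophin 3 receptor of proprioceptors and mechanoreceptors, was 919, 1227, 1324, 1153 and 1147 in vehicle and 568, 652.5 and 840 with the fusion protein, without overlap (-0.69 ± 0.10, adjusted p = 9.18e-05). Gfra2, the neurturin receptor, fell by 0.38 ± 0.09. Among 18 nerve injury and regeneration genes 4 rose and 1 fell (0.19); the growth cone protein Gap43 rose by 0.32 ± 0.08 but differed by 0.07 (adjusted p = 0.564) with length and GC trends removed. Of 19 immediate-early genes 0 rose and 1 fell (-0.02): Nr4a1 fell by 0.36 ± 0.11, a call that ended without vehicle replicate 5 (-0.31, adjusted p = 0.0587) and with only the libraries labelled 1 to 8 (-0.31, 0.0563), and Jun did not pass (-0.04 ± 0.17).

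**Figure D4:**
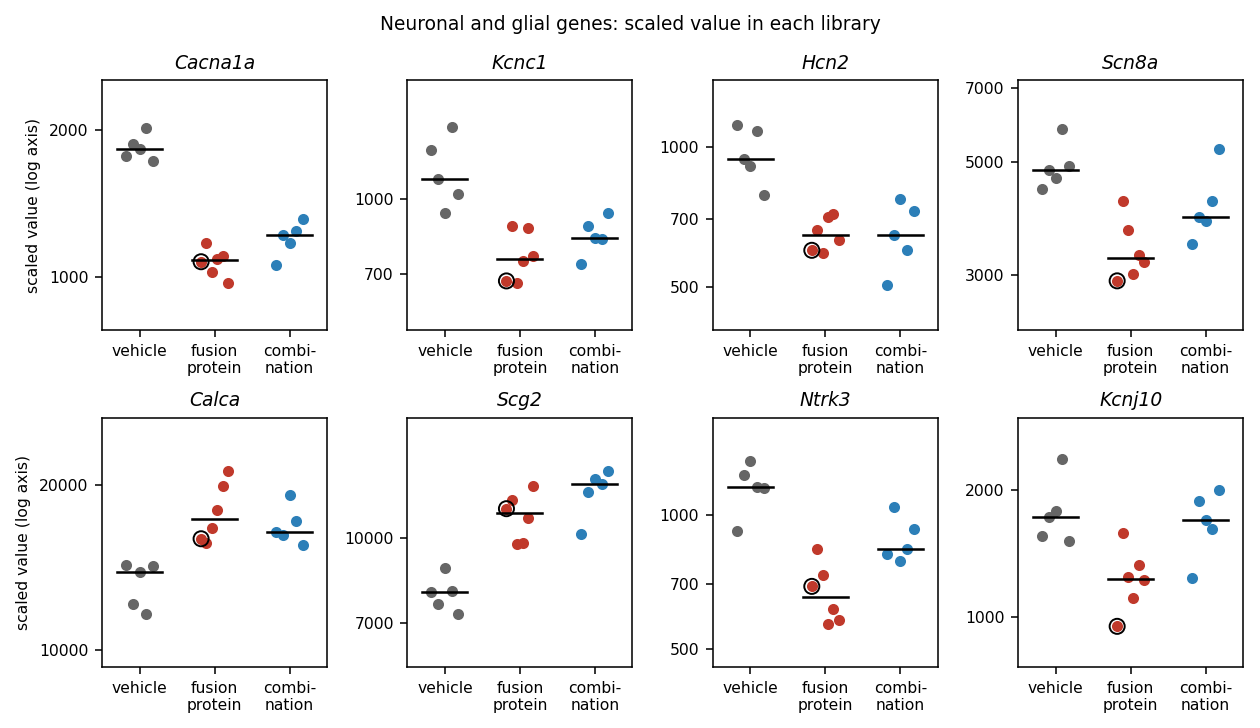
Scaled values on a log axis of 8 neuronal and glial genes in each vehicle (grey, n = 5), fusion protein (red, n = 6; ring, replicate 1) and combination (blue, n = 5) library, with the group median as a bar. Cacna1a, Kcnc1, Hcn2, Scn8a and Ntrk3 are below every vehicle library in all 6 fusion protein libraries, Calca and Scg2 above, and the combination medians of Cacna1a, Kcnc1 and Hcn2 lie nearer to those of the fusion protein than to vehicle.

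Glial genes were mostly without a call, as were tested genes as a whole, of which 12.0% rose and 13.7% fell. Of 19 satellite glia markers 0 rose and 4 fell (21.1%, median 0.00), and of 21 Schwann cell and myelin genes 0 rose and 2 fell (9.52%, median -0.07). Kcnj10, the potassium channel with which satellite glia buffer potassium around neurons, was 1558, 1725, 1788, 2373 and 1520 in vehicle and 953, 1235.5 and 1584 with the fusion protein (-0.49 ± 0.13, adjusted p = 0.00894). Only fusion protein replicate 2 reached into the vehicle range. Hepacam, a glial adhesion molecule, was 222 to 352 against 93 to 198, without overlap (-0.50 ± 0.11). Sox10, the factor of the whole peripheral glial lineage, fell by 0.37 ± 0.11 (-0.40, adjusted p = 0.052, with only the libraries labelled 1 to 8), and Apoe did not pass (0.49 ± 0.24, adjusted p = 0.143).

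Of 29 endoplasmic reticulum chaperones and translocation genes, 11 rose and 1 fell (median 0.16). Without fusion protein replicate 1 the counts were 8 and 2. The ER stress element, CCAAT and CCACG with any 9 bases between them, searched on both strands of the same 250 bases, was present in 4 of the 10 risen members with a promoter (40.0%), in 3 of 14 members with no call (21.4%) and in 0.147% of tested genes with a promoter. The 3 holders with the largest increases are printed with matches in capitals, from chr2:34771840-34772089 (plus strand, Hspa5), chr12:17266339-17266588 (plus, Pdia6) and chr10:86705445-86705694 (minus, Hsp90b1), GRCm38.p6, from RefSeq.
Hspa5: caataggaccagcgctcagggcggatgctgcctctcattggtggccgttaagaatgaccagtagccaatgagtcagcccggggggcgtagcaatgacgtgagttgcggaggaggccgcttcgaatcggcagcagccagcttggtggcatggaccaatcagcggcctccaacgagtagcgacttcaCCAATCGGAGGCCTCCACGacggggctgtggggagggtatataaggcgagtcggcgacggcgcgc
Pdia6: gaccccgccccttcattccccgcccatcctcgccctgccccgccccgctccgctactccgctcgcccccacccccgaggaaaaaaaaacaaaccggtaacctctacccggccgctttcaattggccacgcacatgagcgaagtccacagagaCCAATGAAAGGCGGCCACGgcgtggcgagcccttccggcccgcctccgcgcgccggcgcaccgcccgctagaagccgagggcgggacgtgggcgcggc
Hsp90b1: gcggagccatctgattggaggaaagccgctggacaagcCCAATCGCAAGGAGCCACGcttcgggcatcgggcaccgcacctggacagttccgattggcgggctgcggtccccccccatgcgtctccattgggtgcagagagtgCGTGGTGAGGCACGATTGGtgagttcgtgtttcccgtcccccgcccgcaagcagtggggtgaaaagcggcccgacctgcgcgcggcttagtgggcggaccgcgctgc
Hsp90b1 held 2 matches, 1 on each strand. Hspa5, the main chaperone of the compartment, was 6337, 6147, 5770, 5730 and 5921 in vehicle and 7796, 8007.5 and 10373 with the fusion protein, without overlap (0.49 ± 0.08, adjusted p = 0.0003). Pdia6, a disulfide isomerase, rose by 0.43 ± 0.06, Hsp90b1, a chaperone of Toll-like receptors, by 0.42 ± 0.07, and Sec61b, part of the translocation channel, by 0.51 ± 0.10. Canx, the lectin chaperone calnexin, did not pass (0.16 ± 0.08), and Syvn1, a ligase that discards misfolded proteins and named after its values were seen, fell by 0.34 ± 0.07.

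In other housekeeping pathways some genes were called, set beside 12.0% of all tested genes higher and 13.7% lower. The shares of steroid-induced genes lower (14.3%) and of cholesterol genes higher and lower (17.9% and 10.7%) lay near these. Cytosolic heat-shock genes rose in 5 and fell in 1 of 21 cases (median 0.17), with Hspa8 at 0.37 ± 0.07, the cochaperone Bag3 at -0.50 ± 0.10 and Hsp90aa1 not passing (0.31 ± 0.12, adjusted p = 0.0534). Glycolysis and hypoxia genes rose in 8 of 29 with 0 lower (0.21), led in level by Ldha, lactate dehydrogenase (4974 to 6401 in vehicle, 6896 to 8449 with the fusion protein, 0.44 ± 0.07), and Pgk1 (0.41 ± 0.07). Cholesterol genes rose in 5 and fell in 3 of 28 (0.00), with the synthesis enzymes Fdps and Fdft1 rising by 0.38 ± 0.06 and 0.35 ± 0.06, and without fusion protein replicate 1 the counts were 4 and 1. Iron, heme and oxidative stress genes rose in 5 of 23 with 0 lower (0.21), among them the macrophage iron transporter Slc11a1 (0.75 ± 0.14) and Sod1 (0.52 ± 0.09). Steroid-induced genes fell in 2 of 14 with 0 higher (0.05): Per1 by 0.49 ± 0.10 and Zbtb16 by 0.67 ± 0.14, while Tsc22d3, a glucocorticoid target, did not pass (0.12 ± 0.09). Clock genes, which share Per1, fell in 5 of 22 with 0 higher (-0.15), with Nr1d1 falling by 0.47 ± 0.08. Collagen and matrix genes rose in 2 and fell in 8 of 36 (-0.11). Mmp3, stromelysin, was 39, 10, 28, 4 and 6 in vehicle and 66, 138 and 207 with the fusion protein (1.27 ± 0.20), while Col1a1, Col1a2 and the basement membrane proteoglycan Hspg2 fell by 0.67 ± 0.17, 0.32 ± 0.08 and 0.64 ± 0.12. With trends removed 3 matrix genes were lower and the median was 0.01, and Col1a2 (-0.17, adjusted p = 0.243) and Hspg2 (-0.32, 0.0624) lost their calls. Of 14 cell cycle genes 1 rose, Pcna (0.39 ± 0.08; 0.22, adjusted p = 0.0723, with trends removed), with 0 lower (-0.01). Of 15 housekeeping genes often used as references 6 rose and 1 fell (0.14), with Actb (0.14 ± 0.14) and Gapdh (0.33 ± 0.13) not passing.

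Nuclear-retained and mitochondrial RNA fell in 6 of 15 cases and rose in 0 (median -0.39). Lars2 was 34223, 16030, 5082, 7202 and 3876 in vehicle and 498, 1567.5 and 4601 with the fusion protein (-2.59 ± 0.60, adjusted p = 0.00653), so vehicle libraries themselves spread widely. Malat1, a nuclear long noncoding RNA, was 13092 to 25517 against 5008 to 9949 (-1.39 ± 0.25), the mitochondrial ribosomal RNA mt-Rnr1 fell by 1.69 ± 0.49, and the mitochondrial gene mt-Nd6 fell by 1.26 ± 0.26 (-1.29, adjusted p = 0.0621, with only the libraries labelled 1 to 8), whereas mt-Co1 did not pass (0.17 ± 0.11). Lars2 and Malat1 were also lower with the combination (-2.80 and -1.07), and the difference between the treatments did not pass (0.21 and -0.32). Among protein-coding genes, the chromatin and transcription factors Zfhx3, Kmt2d and Nfia fell by 0.95 ± 0.14, 0.93 ± 0.11 and 0.83 ± 0.12. Bsn and Pclo, scaffolds of the presynaptic active zone, fell by 0.80 ± 0.09 and 0.79 ± 0.14, Syn1, a synaptic vesicle protein, by 0.77 ± 0.16, and Nav2 and Dpysl2, which guide axons, by 0.80 ± 0.10 and 0.78 ± 0.12. Bsn was 2340 to 3085 in vehicle and 1268 to 1767 with the fusion protein, without overlap. Zfhx3, Kmt2d, Nfia, Bsn, Pclo and Nav2 are long, with 10891 (Nfia) to 32228 (Nav2) exonic bases against a median of 4616 for all tested genes. Syn1 (3299) and Dpysl2 (4520) are not. Polr2a, the large subunit of RNA polymerase II, fell by 0.56 ± 0.14 (-0.45, adjusted p = 0.074, with only the libraries labelled 1 to 8).

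Exonic length ran through the whole comparison. The median exonic length was 2872 bases for genes that rose and 7159 for genes that fell. When tested genes were split into 10 equal groups by exonic length, in the shortest (median 1423 bases) the median difference was 0.15, with 31.8% higher and 1.72% lower, and in the longest (12760 bases) it was -0.18, with 1.42% higher and 36.1% lower. With the trends of length and GC content removed from each library, 1687 genes were higher and 1741 lower, of which 1011 and 1069 were called in the same direction without removal, and 0 genes were called in opposite directions. The medians of other antiviral effectors, IFIT and OAS genes, class I genes, Fc receptors and monocyte markers were then 0.75, 0.79, 0.42, 0.94 and 0.89, against 0.77, 0.85, 0.54, 1.16 and 0.89 as deposited. The part of length in these differences was not tested beyond this removal.

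**Figure D5:**
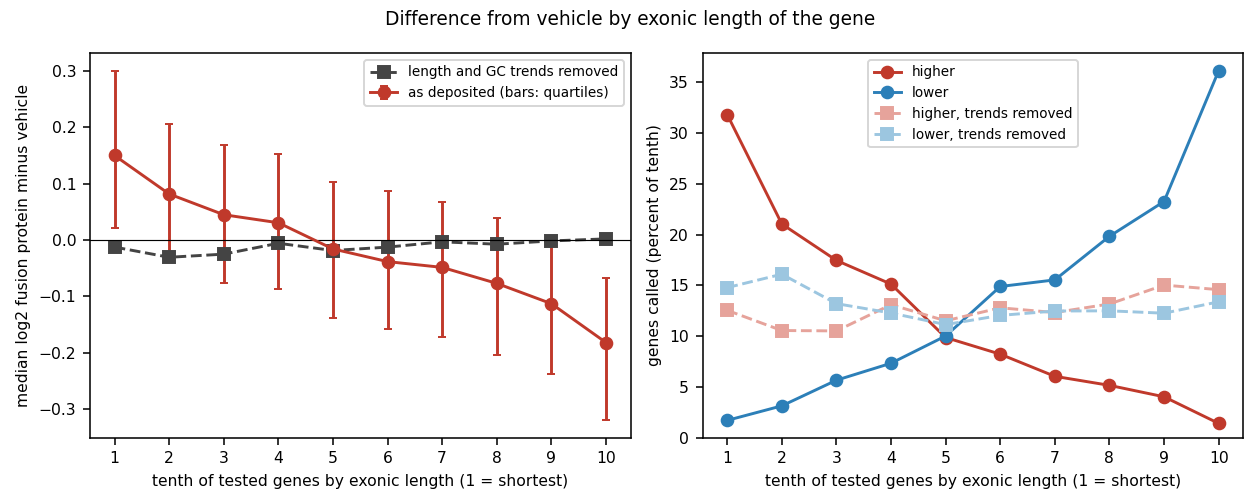
Tested genes split into 10 equal groups by exonic length (1, shortest); left, median log2 difference between fusion protein and vehicle with quartile bars (red) and with length and GC trends removed (dashed); right, percent of genes called. The median falls from 0.15 to -0.18 across the groups as deposited and lies between -0.03 and 0.00 after removal.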

How the data were processed

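Polyadenylated RNA of lumbar DRG was sequenced in 16 libraries, per the labels' protocols, and the submitters' processing notes name FastQC, STAR, HTSeq, DESeq2 and GRCm38. The authors deposited log2 values of a variance-stabilising type for 36722 genes, and how libraries were scaled before is not given in the sources used here. These log2 values decoded to whole scaled values (100% within 0.01), which are not read counts, so the depth is unknown. The lowest scaled value is 0, which 7 values of fusion protein replicate 5 and 27 of fusion protein replicate 6 reach. In the other libraries no value lies below 1, where some mitochondrial genes that every cell uses also stand. The deposited table also holds the percent GC content of each gene, added by the authors from a source not given in the files used here, and p-value columns of the authors, which were not used. Genes with a mean log2 value of at least 6.99 were tested with limma 3.58.1 in R 4.3.3 (trend and robust) on all 16 libraries in 1 model, with Benjamini-Hochberg adjustment over 13385 genes and a threshold of 0.05. The procedure was tested on simulated data. Tables were made with Python 3.11.15 and pandas 2.3.3. Gene coordinates and exonic lengths came from GENCODE M21 (GRCm38), which matched 36345 genes, and promoters from RefSeq (GRCm38.p6). The percent of genes called stands beside each comparison's first count. Length and GC trends were removed per library as an alternative. Other alternatives were the filter, median centring, quantile normalization, log2 of the scaled value plus 1, limma without trend and robust, only both groups, the libraries labelled 1 to 8, a term for late label numbers, a replicate block and leaving out each library.

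The comparison and its gene lists were chosen with earlier results of these data known, and lists can share genes. Named genes were the 15 largest increases and 15 largest decreases among called genes with an established symbol, and in each list up to 4 called members with the largest difference and up to 2 members without a call and with the highest mean. In addition every tested member of the cytokine receptor, JAK and STAT, interferon and inhibitory receptor lists could be named. Genes outside this rule are said to have been named after their values were seen. Some genes are not reported here.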

Additional observations from a re-analysis of the deposited data

Results flagged for a closer look

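A library was marked where its gap to the nearest library exceeded Dixon's 95% critical value for its group. Of 512 groups of values examined, 42 held such a library, and chance marks about 1 in 20 groups. Of the 42, 27 were fusion protein replicate 1, and no explanation was tested.

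Fusion protein replicate 1 was marked as the highest of its group in 6 list medians (log2 value above the vehicle mean): Fc receptors at 2.02, acute-phase genes at 1.59, chemokine receptors at 1.38, TNF and NF-kB regulators at 0.77, Toll-like receptors at 0.63 and cell cycle genes at 0.18. In further lists it was the highest without a mark, among them monocyte markers (2.06), other antiviral effectors (1.38) and IFIT and OAS genes (1.20). The same library was highest in scaled value for cytokine receptor and effector genes, with Il4ra at 2627, Il13ra1 at 1130, Saa3 at 2715, Timp1 at 2839, Fcgr1 at 612 and Arg1 at 629. It was also highest for the chemokine and cytokine genes Ccl9 at 1530, Ccr1 at 1513, Il1b at 1471 and Tnfrsf1b at 569. Among myeloid and vessel genes it was highest for Slfn4 at 5286, Tlr13 at 795, Tlr2 at 254, C5ar1 at 677, Lilr4b at 957, Fcer1g at 1419, Ctss at 2405, Csf3r at 1934, Selp at 519, Slc11a1 at 287 and Clec7a at 256.

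In other fusion protein libraries, Ifit3b was highest in replicate 6 at 945 and Nav2 in replicate 4 at 285. The lowest values were Stat6 at 2138, Scn10a at 17540 and Ptger2 at 34 in replicate 4, Tyk2 at 172 and Lck at 43 in replicate 2, and Pcna at 502 in replicate 3. In vehicle, the TRP, Piezo, ASIC and P2X list median was highest in replicate 4 at 0.0883, as was Psma4 at 1698. Il2rg was highest in replicate 1 at 51, Tyk2 in replicate 3 at 320 and Scn10a in replicate 5 at 27242. Irf7 was lowest in replicate 5 at 54 and Nav2 in replicate 1 at 398.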

How the results depend on the processing

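Of 145 named genes with a call, 104 kept it under each of the 25 alternatives that tested them, and 0 tested genes were called in opposite directions. The read depth is unknown and sets no floor here. Leaving out 1 library gave 1165 to 1573 genes higher and 1331 to 2086 lower than vehicle. With only the libraries labelled 1 to 8 there were 1026 higher and 1137 lower, and the medians were 0.18 for alternative activation, -0.14 for fibroblasts, 0.0515 for pain mediator receptors, -0.23 for inhibitory receptors and -0.22 for neurotrophin receptors. With these fewer samples 25 named genes lost their calls (adjusted p 0.052 to 0.211), among them Tgm2 (0.0615), Trpa1 (0.0973), Trpm3 (0.0722) and H2-DMb1 (0.0848). The cause of these movements was not tested.

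The genes that differ between the fusion protein and the combination numbered 3950. They were 1568 with length and GC trends removed, 911 with trends removed and a late label term, 1812 with trends removed and a replicate block, 2383 after quantile normalization and 2563 without fusion protein replicate 4. Leaving out 1 library gave between 2563 and 4837.

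With trends removed, the matrix median reversed to 0.0130 and the medians were 0.22 for proteasome, 0.13 for mast cells, 0.18 for peptides, -0.0289 for sodium channels, -0.13 for calcium channels, -0.11 for satellite glia and 0.0775 for housekeeping genes. With a late label term added they were 0.41 for interferon transcription factors, 0.22 for proteasome, 0.11 for mast cells, 0.21 for peptides, -0.0132 for sodium channels, -0.13 for calcium channels, -0.00148 for matrix and 0.0853 for housekeeping genes. The late label term alone gave 0.21 for complement.

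Whether replicate numbers pair the samples is not known. The correlations of same-numbered fusion protein and vehicle deviations were -0.06, 0.46, 0.19, -0.20 and 0.34. Differently numbered libraries were not compared, so these values cannot decide it. The replicate block gave 1538 genes higher and 1678 lower and ended 2 named calls, Trpa1 (0.25, adjusted p = 0.0552) and Nr4a1 (-0.33, 0.0547). The replicate block with trends removed gave 0.12 for JAK, STAT and SOCS genes, 0.40 for interferon transcription factors, 0.21 for proteasome, 0.10 for mast cells, 0.18 for peptides, -0.0210 for sodium channels, -0.15 for calcium channels and, reversed, 0.0263 for matrix.

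On log2 of the scaled value plus 1, medians were 0.72 for cytokine receptors, 0.37 for interferon transcription factors, 1.33 for IFIT and OAS genes, 1.06 for other antiviral effectors, 0.59 for chemokines, 0.96 for their receptors, 1.01 for acute-phase genes, 0.38 for complement, 0.44 for Toll-like receptors, 1.72 for Fc receptors, 0.46 for macrophages, 0.80 for T and NK cells, 0.57 for mast cells, 0.64 for endothelial activation, -0.14 for TRP channels, -0.38 for calcium channels, -0.34 for potassium channels, -0.24 for inhibitory receptors and -0.24 for clock genes.

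A stricter filter, which tests fewer genes, reversed the medians of mast cells to -0.18 and of endothelial activation to -0.12, and gave 0.62 for chemokines, 0.0703 for T and NK cells and -0.14 for TRP channels. Without a filter 1 named call ended, that of Trpa1 (0.26, adjusted p = 0.0541). Leaving out 1 library gave complement medians of 0.19 to 0.34, neurotrophin receptor medians of -0.17 to -0.0240 and housekeeping medians of 0.11 to 0.19. Without fusion protein replicate 1 and vehicle replicate 1 together, the first pair were 0.37 and -0.0261.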
